A study of Mus musculus with 7 samples.

Results

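The β-catenin peak list of mouse branchial arches held 1079 peaks, out of 8229 peaks in the 2 peak lists analysed here, and every peak of the list was taken. The tissue was branchial arch from embryos of 10.5 days post coitum, and the labels name no mutant allele or treatment, describing the antibody as raised against the wild-type protein. The list came from the ChIP library labelled b-cat-BA2, and the library labelled IgG-BA1, made with pre-immune serum, served as its control per the file header. The labels do not say whether BA1 and BA2 are different arches or repeat collections. Dissected arches were pooled into a single-cell suspension before cross-linking, so the library can hold DNA of neural crest mesenchyme, epithelium, endothelium, muscle precursors and blood. The other list, of the Pygo2 library labelled Pygo2-BA2, was called over the same control and is used only for comparison. Each list rests on 1 library, so there is no replicate error and no test, and the 95% Wilson intervals below cover counting error only. The library held 13672937 tags, of which 15795 lay in peaks, a mean of 14.6 tags per peak against a calling minimum of 11. With 1 deposited score for all peaks, the score does not rank them by strength, and the key of the deposited order is not stated.

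β-catenin links cadherins to the cytoskeleton at cell junctions, and in the canonical Wnt pathway it enters the nucleus and acts as a coactivator. It does not bind DNA by itself: TCF and LEF proteins hold it on chromatin at a short core sequence, and other DNA-binding proteins can carry it as well. In the branchial arches Wnt signalling acts on the neural crest, the epithelium and the progenitors that add to the outflow tract of the heart. The double cross-linking used here, which fixes proteins to each other before DNA, also captures proteins that reach DNA through partners.

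Some of the peaks reached the 300-base promoter windows for which RefSeq sequence was at hand (assembly GRCm38.p6, 250 bases before to 50 after a start, along the strand of the gene). The sequences of 6 windows are printed because the results below return to these genes: Axin2, the feedback inhibitor of the Wnt pathway with 2 peaks, Jag1 and Smad6 for heart and signalling genes, H4c11 for the histone genes, Tcf12 for the run of 3 peaks, and Ppp1r10 for TCF/LEF letters inside a peak. Capitals mark the bases covered by the peak. The windows lie at chr11:108920099-108920398 (plus strand) for Axin2, chr2:137116471-137116770 (minus) for Jag1, chr9:64022010-64022309 (minus) for Smad6, chr13:21734784-21735083 (plus) for H4c11, chr9:71896047-71896346 (minus) for Tcf12 and chr17:35919022-35919321 (plus) for Ppp1r10.
Axin2: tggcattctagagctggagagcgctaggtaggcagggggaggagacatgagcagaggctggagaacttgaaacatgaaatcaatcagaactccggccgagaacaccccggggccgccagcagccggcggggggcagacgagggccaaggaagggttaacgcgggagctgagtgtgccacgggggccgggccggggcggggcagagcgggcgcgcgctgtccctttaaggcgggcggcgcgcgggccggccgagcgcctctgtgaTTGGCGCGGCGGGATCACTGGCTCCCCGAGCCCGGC
Jag1: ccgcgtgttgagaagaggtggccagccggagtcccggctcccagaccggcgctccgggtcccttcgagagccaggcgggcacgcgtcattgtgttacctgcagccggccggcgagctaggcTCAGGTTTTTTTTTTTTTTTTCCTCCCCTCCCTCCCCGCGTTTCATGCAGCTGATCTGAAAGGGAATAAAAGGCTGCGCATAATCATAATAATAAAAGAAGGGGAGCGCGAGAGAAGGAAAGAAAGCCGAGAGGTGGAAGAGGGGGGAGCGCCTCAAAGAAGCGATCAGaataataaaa
Smad6: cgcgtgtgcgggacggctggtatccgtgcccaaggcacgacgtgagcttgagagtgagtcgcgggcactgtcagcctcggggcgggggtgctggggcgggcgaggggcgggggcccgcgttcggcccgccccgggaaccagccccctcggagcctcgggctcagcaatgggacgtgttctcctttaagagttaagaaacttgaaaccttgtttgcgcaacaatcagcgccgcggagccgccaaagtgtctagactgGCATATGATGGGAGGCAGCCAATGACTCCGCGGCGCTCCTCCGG
H4c11: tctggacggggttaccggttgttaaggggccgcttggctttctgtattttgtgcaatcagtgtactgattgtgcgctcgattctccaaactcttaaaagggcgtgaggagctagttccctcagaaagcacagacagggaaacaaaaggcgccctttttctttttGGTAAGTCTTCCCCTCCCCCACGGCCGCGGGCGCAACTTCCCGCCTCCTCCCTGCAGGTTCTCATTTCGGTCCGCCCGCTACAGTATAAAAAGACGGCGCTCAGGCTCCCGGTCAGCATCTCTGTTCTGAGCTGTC
Tcf12: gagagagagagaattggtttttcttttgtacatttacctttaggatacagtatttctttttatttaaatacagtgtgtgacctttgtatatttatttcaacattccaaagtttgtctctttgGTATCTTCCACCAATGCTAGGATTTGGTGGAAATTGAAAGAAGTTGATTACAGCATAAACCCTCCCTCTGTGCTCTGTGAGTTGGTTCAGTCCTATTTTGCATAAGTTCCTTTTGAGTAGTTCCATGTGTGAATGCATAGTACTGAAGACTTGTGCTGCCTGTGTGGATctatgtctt
Ppp1r10: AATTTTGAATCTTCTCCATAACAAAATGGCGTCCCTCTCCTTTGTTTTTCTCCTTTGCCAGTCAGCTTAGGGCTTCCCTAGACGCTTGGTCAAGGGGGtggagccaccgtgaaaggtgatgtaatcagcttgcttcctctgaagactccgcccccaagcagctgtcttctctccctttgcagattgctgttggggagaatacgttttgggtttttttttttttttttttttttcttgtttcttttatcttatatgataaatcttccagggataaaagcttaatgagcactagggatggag

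The peaks covered 169 bases of the Jag1 and Tcf12 windows, which is the width of a whole peak, 136 bases at H4c11, 98 at Ppp1r10, 44 at Smad6 and 36 at Axin2. The Axin2 and Smad6 windows each held 31 CpG dinucleotides, Jag1 22 and H4c11 18. The Tcf12 window, at a start inside the gene, held 0.

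β-catenin peaks were concentrated at gene starts. A peak was counted at a gene end when its centre lay within 1 kb of either end of a protein-coding gene, and 373 peaks were (34.6%, interval 31.8 to 37.5%), whereas such sequence makes up 3.00% of the chromosomes. Strand was known for the gene of 302 of the 373, and the end was the start of the gene in 273 (90.4%, interval 86.5 to 93.2%) and its tail, the 3′ end, in 29. Of the 29 tail peaks, 21 had no RefSeq start within 1 kb. Ccnd1 is an example of a peak at a gene end of unknown strand. Beyond gene ends, 363 peaks (33.6%) lay inside genes against 37.8% of the sequence, 204 (18.9%) were intergenic within 50 kb against 22.8%, and 139 (12.9%) were intergenic farther out against 36.4%.

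Around starts the peaks formed a broad cluster that leaned upstream. Of the 1050 peaks on chromosomes with start sites in the promoter table, 185 (17.6%, interval 15.4 to 20.0%) had their centre within 250 bp of a start and 340 (32.4%, interval 29.6 to 35.3%) within 1 kb. Upstream of the start lay 216 of these 340 (63.5%, interval 58.3 to 68.5%). The fullest 100 bp bin, from 200 to 100 bp upstream, held 51 peaks (4.86%), and the bins on either side of the start held 42 and 40. In the Pygo2 list the fullest bin was the one ending at the start, with 9.20% of its peaks, and 29.3% of its peaks lay within 250 bp of a start. Of the 340 peaks, 64 (18.8%) sat at starts inside longer genes, away from both gene ends, as at Axin2, Prrx1 and Tcf12.

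**Figure D1:**
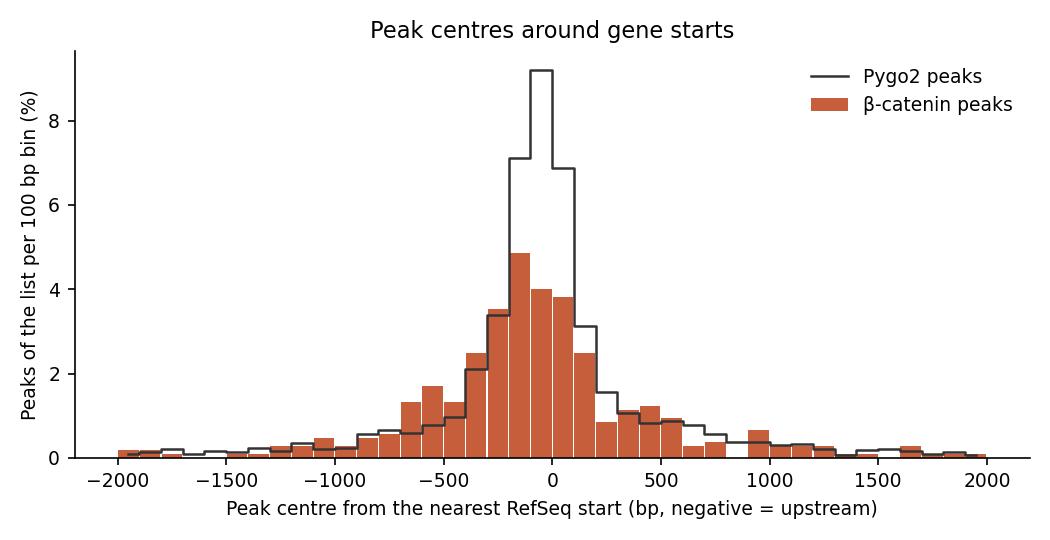
Share of β-catenin peaks (bars) and Pygo2 peaks (line) whose centre fell in each 100 bp bin from 2 kb upstream to 2 kb downstream of the nearest RefSeq start; the y axis is the percent of the list. The β-catenin bars reach 4.86% at 200 to 100 bp upstream and the Pygo2 line 9.20% just before the start.

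Peaks inside genes lay in long genes, more of them towards the 5′ end. The 363 peaks fell in 337 genes with a median length of 93.2 kb, against 17.2 kb for all protein-coding genes. A place inside a gene and over 1 kb from its ends falls more often in a long gene by definition. The length contrast is therefore no result about these peaks, and length was not adjusted for in any count of peaks per gene. Of the 303 such peaks in genes of known strand, 92 (30.4%) lay in the first of 5 equal parts of the gene, then 69, 53, 44 and 45 in the following parts, and 101 lay within 10 kb of the gene start. The first part includes peaks at starts inside genes, described above, as at Axin2 and Prrx1. Intergenic peaks were at a median of 32.9 kb from the nearest gene end.

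Each peak was given to its nearest protein-coding gene, which yielded 995 genes (4.55% of 21887) with at least 1 peak. Most had a single peak: 920 genes had 1, 66 had 2 and 9 had 3, a mean of 1.08 peaks per gene. In the Pygo2 list, with 7150 peaks against 1079, 5188 genes had a peak, with a mean of 1.38 per gene and up to 15 at one gene. Peaks per gene rise with the size of a list, and this was not adjusted for. The 75 genes with at least 2 β-catenin peaks held 159 peaks and had a median length of 84.0 kb, against 31.1 kb for all 995. A longer gene has more sequence in which a peak can fall, and this was not adjusted for. The 9 genes with 3 peaks were Bahcc1, Spsb1, Pim1, Tcf12, Tmem132c, Hace1, Sfi1, Septin9 and Tcf4.

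Among these 9 genes the peaks followed different layouts. At Bahcc1, which encodes a chromatin protein with a BAH domain, 2 peaks flanked the start at 0.399 kb upstream and 0.094 kb downstream, and the third lay 15.7 kb upstream. At Spsb1, a substrate adaptor of a ubiquitin ligase, peaks lay 0.153 and 1.18 kb upstream of the start and 2.58 kb beyond the other end of the gene. Pim1, a serine/threonine kinase gene, had peaks 32.4 and 26.5 kb upstream and another 0.531 kb upstream of a start inside the gene. At Tcf12, a basic helix-loop-helix factor of the E-protein class and not a TCF/LEF protein, all 3 peaks (chr9:71880078-71880246, chr9:71888490-71888658 and chr9:71896056-71896224) lay inside the gene within 16.1 kb. The peak at chr9:71896056-71896224 was centred 0.044 kb upstream of a start within Tcf12, and its sequence stands in capitals above. Tcf4, another E-protein gene, had 1 peak inside and 2 outside at 146 and 401 kb. Tmem132c had 3 peaks inside, from 77.6 to 129 kb behind its start. Septin9, a cytoskeletal septin gene, had 1 inside and 2 at 43.1 and 117 kb from the gene. Hace1, a ubiquitin ligase gene, was the nearest gene to 3 intergenic peaks 162, 182 and 965 kb away. Sfi1, a gene for a centrosome protein, had 2 peaks inside and 1 at 9.34 kb from the gene.

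**Figure D2:**
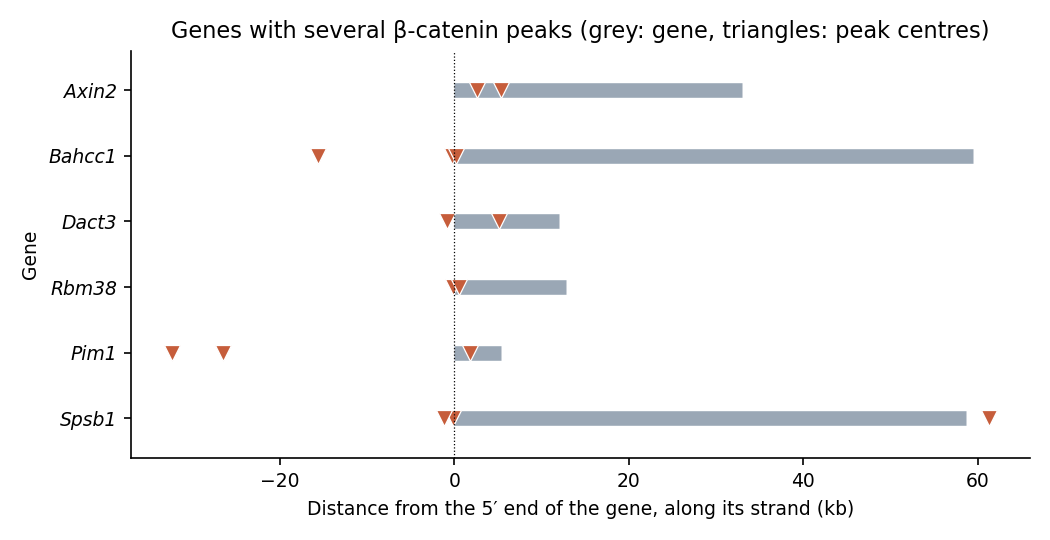
Genes with several β-catenin peaks, drawn along their own strand: grey bars are the genes, triangles the peak centres, and the x axis is the distance from the 5′ end of the gene in kb. Both Axin2 peaks lie inside the gene, Bahcc1, Dact3, Rbm38 and Spsb1 each have a peak within 1 kb of the 5′ end, and Pim1 has 2 peaks more than 20 kb upstream.

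Peaks also came in close pairs. Among the closest pairs of genes with 2 peaks were those 355 bp apart at Ppp1r10, a regulatory subunit of protein phosphatase 1, 421 bp at Cstad, 495 bp at Ptov1, 673 bp at Rbm38, an RNA-binding protein gene, and 685 bp at H3f3a, which encodes the replacement histone H3.3. The caller kept peaks at least 336 bp apart, so the Ppp1r10 pair stood close to the smallest gap it allowed. At Rbm38 the pair flanked the start, 0.144 kb upstream and 0.529 kb downstream. Joining peaks with centres at most 10 kb apart gave 40 runs with 82 peaks (7.60% of the list), 38 of 2 peaks and 2 of 3, and 31 of the runs belonged to 1 gene. The 5 longest runs lay at Tmem50a, Rsrp1 and Syf2 (chr4:134914089-134930727, 3 peaks), at Tcf12, at Agps, at Abhd11, and at Pgpep1 and Lsm4.

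The 3 genes given as markers of β-catenin activity, Axin2, Lef1 and Ccnd1, were each the nearest gene of a peak. Axin2 encodes a scaffold of the complex that degrades β-catenin and is itself a Wnt target. Its 2 peaks (chr11:108920363-108920531 and chr11:108923063-108923231) were 2.70 kb apart inside the gene, 0.098 and 2.80 kb downstream of a RefSeq start. The former covered the last 36 bases of the window printed above. Lef1, which encodes a factor that holds β-catenin on DNA, had 1 peak 4.28 kb upstream of its start (chr3:131105935-131106103). Ccnd1, which encodes cyclin D1, had 1 peak 0.805 kb beyond a gene end (chr7:144940552-144940720). These positions come from 1 library and carry no estimate of how often they would recur.

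The wider list of Wnt targets was looked up in the same way. Of 30 targets, 6 were the nearest gene of a peak (20.0%, against 4.55% of all protein-coding genes) and 5 had one inside or within 50 kb (16.7%, interval 7.34 to 33.6%, against 11.2% of all protein-coding genes). Besides the 3 markers these were Tnfrsf19, a receptor of the tumour necrosis factor family (0.586 kb downstream of its start, chr14:61046185-61046353), and Znrf3, a ubiquitin ligase that removes Frizzled receptors (inside the gene, 33.1 kb from its nearer end). Msx1, a homeobox gene of the arches, was the nearest gene to a peak 71.4 kb upstream. Dact3, a gene for a Dishevelled-binding antagonist that was singled out after its values were seen, had 2 peaks, 0.798 kb upstream and 5.12 kb downstream of its start.

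Genes for the pathway itself mostly had peaks at a distance, if at all. The shares over all protein-coding genes are 4.55% for the nearest gene and 11.2% for the window of 50 kb. None of 37 Wnt ligand and receptor genes was the nearest gene of a peak, which allows up to 9.41% of such genes by the same interval, and 2 (Wnt2 and Wnt6, 5.41%) had one within 50 kb. Of 16 genes of signal transduction, 6 had a peak inside or within 50 kb (37.5%, interval 18.5 to 61.4%), but for 5 of them, Apc2, Axin1, Dvl1, Dvl2 and Btrc, another gene was nearer to it. With a window of 5 kb, 1 of the 16 had a peak (6.25%, against 4.54% of all protein-coding genes). The exception was Ctnnb1, the gene of β-catenin itself, with a peak inside the gene 6.90 kb behind its start (chr9:120940396-120940564). Of 24 genes for nuclear partners, 3 were nearest to a peak: Lef1, Smarca4 (the ATPase Brg1, 0.266 kb upstream of a start) and Tle3, a Groucho corepressor (237 kb away). Of 31 cadherin and catenin genes, which serve β-catenin at cell junctions, Ctnnb1 and Cdh12 were nearest to a peak and Jup, the gene of plakoglobin, had one within 50 kb.

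In genes of arch and heart development, peaks lay at the start of some regulators and far from others. Of 40 arch patterning genes, 5 were nearest to a peak and 6 had one within 50 kb (interval of the share 7.06 to 29.1%). A peak lay 0.127 kb downstream of a start of Prrx1, a homeobox gene of arch mesenchyme. At Meis1 the peak lay 0.990 kb from the tail of the gene and 138 kb from a start. Others lay 33.3 kb upstream of Lhx8 and inside Ece1, the endothelin-converting enzyme gene. Of 51 heart development genes, 8 were nearest to a peak and 9 had one within 50 kb (17.6%, interval 9.57 to 30.3%). At Jag1, a Notch ligand gene, the peak centre lay 45 bp upstream of the start (chr2:137116481-137116649). At Smad6, an inhibitor of BMP signalling, it lay 90 bp downstream of a start (chr9:64021885-64022053). Plxna2, a semaphorin receptor gene, had its peak 0.350 kb downstream of a start, Cited2, a coactivator gene, 0.892 kb upstream, and Nrp1, a receptor for VEGF and semaphorins, 1.16 kb downstream. The peaks nearest to Fgf10 and Tbx18 were 128 and 254 kb away, and that of Bmp7 was inside the gene. For the window of 50 kb, the intervals of both lists include the 11.2% of all protein-coding genes. By the nearest-gene count the arch list stood at 12.5% (interval 5.46 to 26.1%) and the heart list at 15.7% (interval 8.17 to 28.0%). The share of all protein-coding genes by that count is 4.55%.

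Genes of other signalling pathways and the Hox genes were looked up next. Of 69 genes of the BMP, FGF, Shh, Notch and retinoic acid pathways, 10 had a peak within 50 kb (14.5%, interval 8.07 to 24.7%), near the 11.2% of all protein-coding genes. Of these 69 genes, 8 were the nearest gene of a peak (11.6%, against 4.55%): Bmp7, Smad6, Id3, Fgf10, Notch2, Jag1, Rara and Nr2f1. Id3, an inhibitor of helix-loop-helix factors and a BMP target, had its peak 3.55 kb upstream. Of 39 Hox genes, 11 had a peak within 50 kb (28.2%), but 2 peaks gave all 11: one 1.61 kb from Hoxa13 reached 7 Hoxa genes, and one beside Evx2 reached Hoxd10 to Hoxd13. Hoxa13 was the one Hox gene nearest to a peak, so the share of this list counts 2 positions and not 11.

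Chromatin regulators had peaks at 4 gene ends. Of 46 genes, 6 were nearest to a peak (13.0%, against 4.55% of all protein-coding genes). Within 50 kb, 9 had one (19.6%, interval 10.7 to 33.2%, against 11.2%). Within 1 kb of an end, 4 had one (8.70%, interval 3.43 to 20.3%, against 2.01%). The 4 were Men1, the menin gene (74 bp upstream of the start), Smarca4, Ezh2, the methyltransferase of Polycomb repressive complex 2 (0.529 kb upstream of a start), and Chd2, a remodeller gene with 2 peaks. Chd3 had a peak inside, and Arid1b had 2, of which one lay inside and the other 368 kb away.

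Genes of the cell types that the dissected arches could hold were looked up in the same way. The shares to read them against are again 4.55% of all protein-coding genes for the nearest gene and 11.2% within 50 kb. Of 23 neural crest genes, 2 had a peak within 50 kb (8.70%, interval 2.42 to 26.8%). The nearest-gene count was 4 of the 23 (17.4%), of which Snai2, a factor of cell migration, had its peak 0.157 kb from a gene end, whereas Foxd3 and Nr2f1 were 153 and 651 kb away and Msx1 is given above. None of 25 pharyngeal epithelium genes was nearest to a peak, and Krt18 and Cldn7 had one within 50 kb. Of 20 endothelial genes only Erg, an ETS factor, was nearest to a peak, with Egfl7 and Eng in the window, and of 16 arch muscle genes none was, with Tbx1 and Des in the window. Blood genes had 0 of 20 in the window, which allows up to 16.1%. Of 22 neuronal genes, Pou4f1 (125 kb) and Ntrk2 (38.0 kb) were nearest to a peak. Hepatocyte genes, from a tissue that was not dissected, had Cyp2e1 (13.3 kb) and Cps1 (335 kb). A peak near a gene does not show which of the pooled cells it came from.

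Proliferation and early response genes complete the lists. Of 25 cell cycle genes, Ccnd1 and Aurkb were nearest to a peak and Mcm4, Mcm5 and Mcm7 had one in the window (5 in all, 20.0%, interval 8.86 to 39.1%). Of 20 immediate early and AP-1 genes, Fosb (16.5 kb upstream), Jund (1.09 kb downstream) and Egr3 (2.33 kb from the gene) were nearest, and 5 had one in the window (25.0%, interval 11.2 to 46.9%). Over all 535 matched genes of the lists, 77 had a peak within 50 kb (14.4%, interval 11.7 to 17.6%), against 11.2% of all protein-coding genes, and 12 (2.24%) had one at a gene end, against 2.01%.

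**Figure D3:**
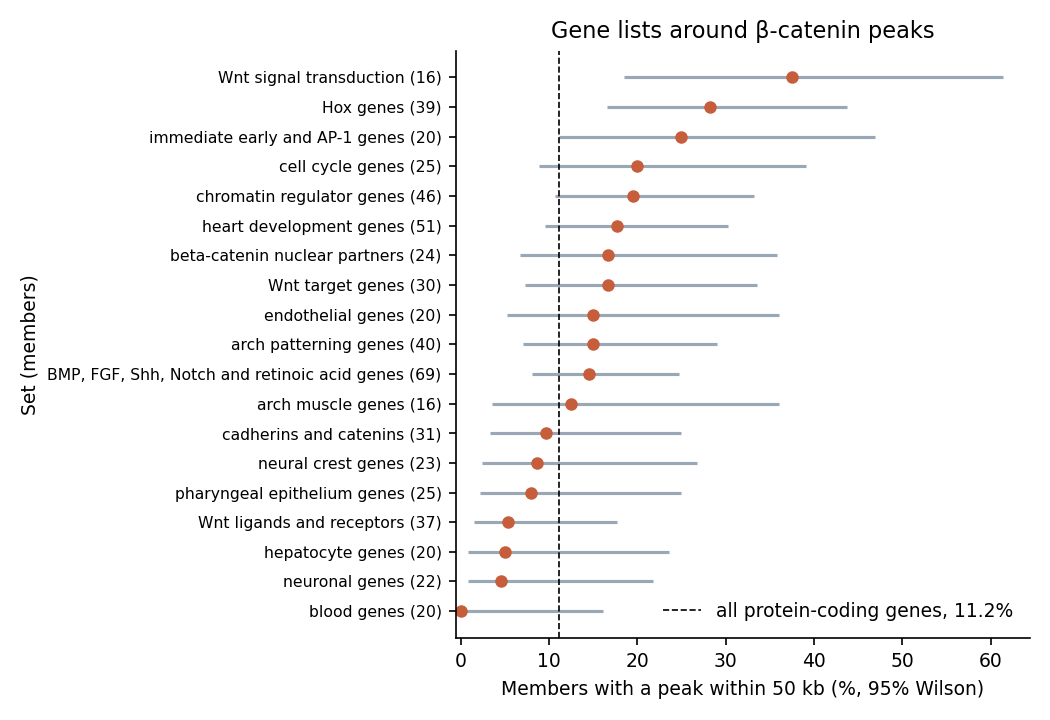
Members of each gene list with a β-catenin peak centre inside or within 50 kb (percent, x axis); points are shares, lines 95% Wilson intervals, and the number of members stands after each name. The dashed line is the 11.2% of all protein-coding genes; the Wnt signal transduction list stands highest at 37.5%, then the Hox list at 28.2%, which rests on 2 peaks.

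Among gene families taken by symbol, the histone genes stood highest. Of 74 core and linker histone genes, 19 had a peak within 1 kb of an end (25.7%, interval 17.1 to 36.7%), against 2.01% of all protein-coding genes. Histone genes lie close together, and the 19 genes shared 13 peaks. Many of them are near-identical copies, so the placement of reads among them is uncertain. H4c11 had its peak centre 2 bp from the start (chr13:21734948-21735116, sequence above), H2bc21 11 bp from an end, H4c12 19 bp and H2ac4 39 bp from their starts. Replication-dependent histone genes are strongly transcribed in S phase of dividing cells. H3f3a and H3f3b, which encode H3.3 throughout the cycle, had their peaks inside the gene but close to a start. Those of H3f3a lay 1.16 and 1.85 kb downstream of a start, and that of H3f3b 0.573 kb downstream.

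Families that make and process RNA and protein followed, read against the 2.01% of all protein-coding genes with a peak at an end. Cytosolic ribosomal protein genes had a peak at an end in 7 of 83 cases (8.43%, interval 4.15 to 16.4%), among them Rpl23a (52 bp), Rps12 (0.111 kb) and Rpl32 (0.113 kb). Mitochondrial ribosomal protein genes had 6 of 75 (8.00%, interval 3.72 to 16.4%), among them Mrps35 at 26 bp and Mrpl52 at 0.118 kb. Splicing factor genes of the SR, hnRNP and snRNP classes had 5 of 56 (8.93%, interval 3.87 to 19.3%), including Srsf10 and Hnrnpu. With a limit of 500 bp, 1 of the 56 splicing factor genes had a peak (1.79%), near the 1.50% of all protein-coding genes. RNA polymerase subunit genes had 3 of 29 (10.3%, interval 3.58 to 26.4%). Genes with translation factor symbols had 4 of 72 (5.56%, interval 2.18 to 13.4%), with Eif4b at 21 bp. The 4 include Eef2k, the gene of a kinase. Respiratory chain genes, at 2 of 92, and proteasome genes, at 1 of 51, stood near the percentage of all genes. Of the 22 Phf genes, which encode PHD finger proteins, 2 had a peak at an end, Phf7 and Phf23.

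Of the developmental transcription factor families, 44 forkhead, 19 Sox and 17 T-box genes had no peak at a gene end, and their intervals reach up to 8.03%, 16.8% and 18.4%. Each of these intervals includes the 2.01% of all protein-coding genes with a peak at an end, so the absence does not set these families apart. The shares at an end below are read against the same 2.01%. Peaks whose nearest gene was Foxn3 or Foxp1 lay 139 and 237 kb inside these genes, and the 2 peaks nearest to Sox11 lay 269 and 332 kb away. The other Sox gene nearest to a peak, Sox12, had it within 2 kb of an end. At that limit 1 of the 19 Sox genes had a peak (5.26%), against 2.53% of all protein-coding genes. Zinc finger Zfp genes had 9 of 397 at an end (2.27%) and solute carriers 6 of 375 (1.60%). Collagen genes had 1 of 44 at an end (2.27%), Col1a1 at 0.832 kb. By the nearest-gene count 5 of the 44 had a peak (11.4%, interval 4.95 to 24.0%, against 4.55%), and Col1a2, which with Col1a1 encodes type I collagen, was 21.0 kb from its peak. Genes with a Rab symbol had 3 of 69 at an end, with Rab33b at 10 bp and Rab29 at 13 bp. A further 7 families also had no peak at an end: 1110 olfactory receptor genes (up to 0.345%), 355 vomeronasal receptor genes, 109 keratin genes, 99 cytochrome P450 genes, 94 potassium channel genes, 69 protocadherin genes and 68 tripartite motif genes.

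**Figure D4:**
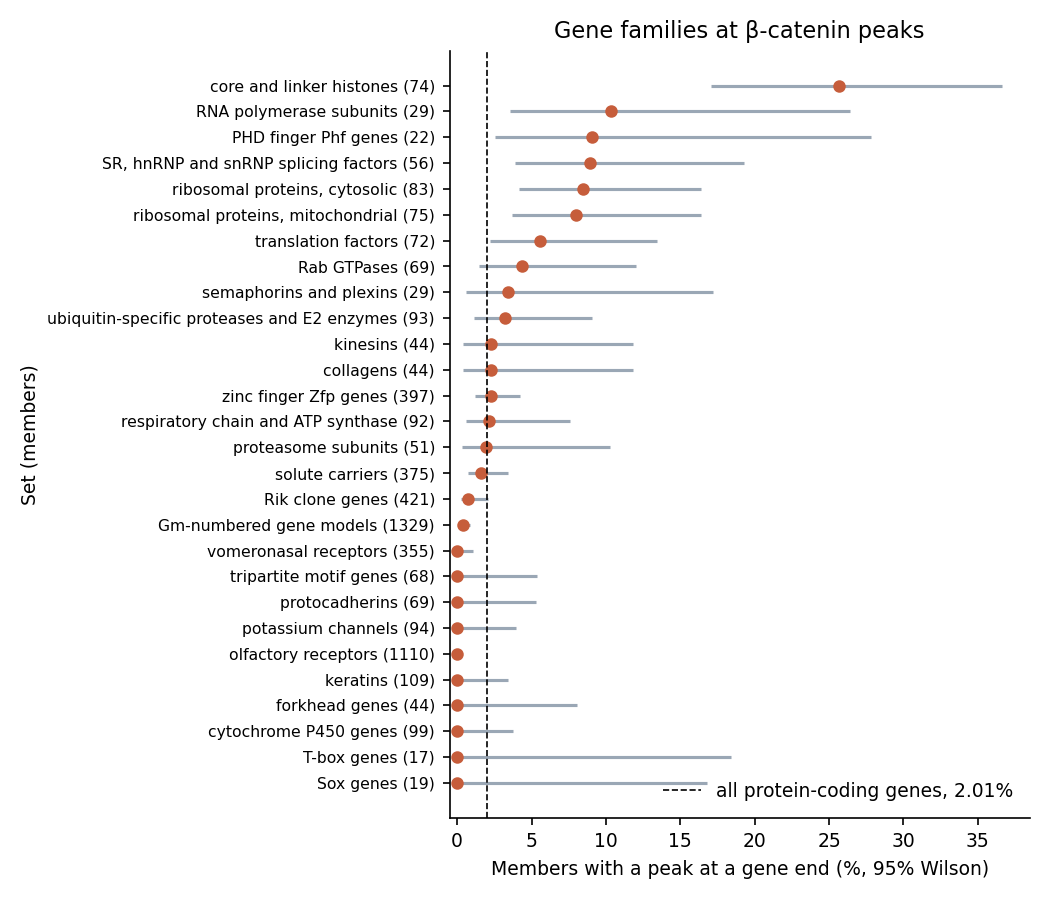
Members of each gene family with a β-catenin peak centre within 1 kb of a gene end (percent, x axis); points are shares, lines 95% Wilson intervals, and the number of members stands after each name. The dashed line is the 2.01% of all protein-coding genes; histone genes stand highest at 25.7%, and 10 of 28 families had no member at a peak.

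The 10 peak centres closest to a gene end lay within 11 bp of one. They belonged to H4c11, Cactin and Fmnl3 at 2 bp each, Arhgap28 at 5 bp, Haus8, an augmin complex gene, at 6 bp, Gm46294 at 9 bp, Rab33b and Atg2a, an autophagy gene, at 10 bp, and H2bc21 and Cdkl3 at 11 bp. The peak at Gm46294 lay inside Rara, a retinoic acid receptor gene, 14.5 kb from its nearer end and 2.54 kb downstream of a Rara start.

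A number of peaks lay at the ends of neighbouring genes. Ends of at least 2 protein-coding genes lay within 1 kb of 68 peaks, and 4 of these had ends of 3 or more. Of the 64 peaks with ends of exactly 2 genes, 33 had a start of each, 16 a start and a tail, and 3 a tail of each. The remaining peaks had an end of unknown strand or more than 1 end of the same gene. The divergent pairs included Atm and Npat, a DNA damage kinase and a coactivator of histone genes whose ends are 61 bp apart, Cbx5 and Hnrnpa1 (39 bp), Dtl and Ints7 (4 bp), Bap1 and Phf7 (8 bp), Gfm2 and Nsa2 (7 bp), and Ranbp1 and Trmt2a (153 bp). At such a peak the nearest gene is set by a few bases, and the assignment to either gene is uncertain.

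The number of peaks per gene differed between chromosomes and was lowest on the sex chromosomes. Overall there were 4.93 peaks per 100 protein-coding genes. Among autosomes this ranged from 3.40 on chromosome 19 to 6.65 on chromosome 11, which had 107 peaks for 1609 genes, with a median of 5.49. Chromosome 7, with the most genes (2030), had 73 peaks. The X chromosome had 16 peaks for 966 genes, or 1.66 per 100, and the Y chromosome 0 for 256. The Pygo2 list had 731 peaks on chromosome 11 and 64 on the X chromosome. The share at gene ends was highest on chromosomes 19 (58.3% of 24 peaks) and 7 (53.4% of 73) and lowest on chromosome 18 (20.7% of 29).

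**Figure D5:**
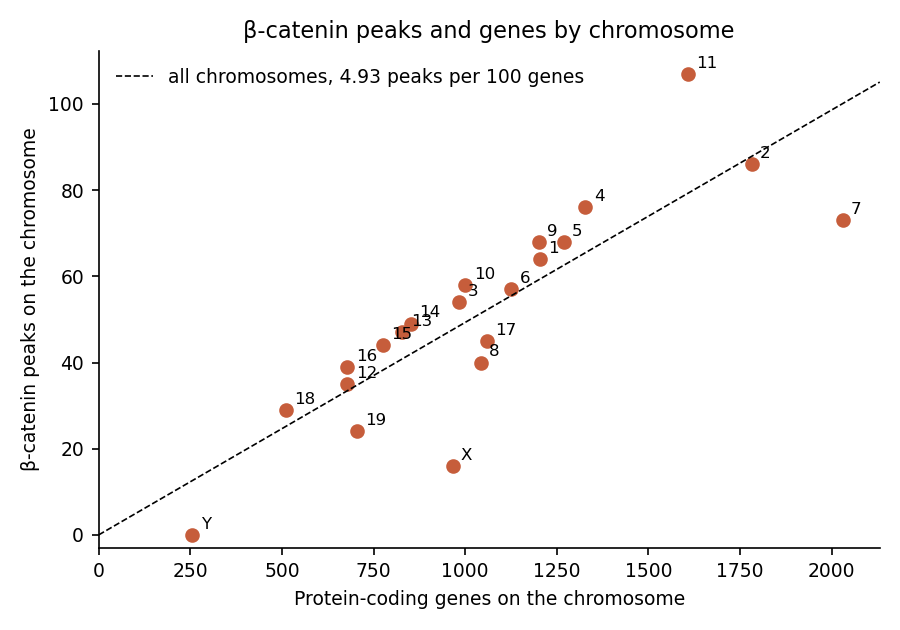
β-catenin peaks (y axis) against protein-coding genes (x axis) for each chromosome, with the dashed line at the overall 4.93 peaks per 100 genes. Chromosome 11 lies above the line with 107 peaks, and the X chromosome below it with 16 peaks for 966 genes.

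Genes that do not encode protein also lay at peaks. A peak centre fell within 1 kb of 37 of 408 transfer RNA genes (9.07%), from 23 peaks, of which 9 were also at the end of a protein-coding gene. By the same count, with genes that hold the peak included, protein-coding genes stood at 3.61%. The peak given to Aurkb, a mitotic kinase gene 3.81 kb away, was centred 14 bp from the tryptophan tRNA gene n-TWcca7 (chr11:69041826-69041897), and one given to H4c8 from 13.8 kb away was 11 bp from the glycine tRNA gene n-TGgcc6 (chr13:23517203-23517273). Of small nuclear RNA genes 7 of 1004 had a peak, of small nucleolar RNA genes 7 of 1340 and of miRNA genes 6 of 1228, where 1 peak was centred inside Mir484. Among long non-coding RNA genes 158 of 12727 (1.24%) had a peak. Of the 343 intergenic peaks, 82 (23.9%) lay at or in such a gene, and the share of intergenic sequence there was not computed. Genes of tRNAs are repeated in near-identical copies, so the placement of reads among them is uncertain, and how multiply mapping reads were treated is not given in the sources used here.

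The letters of the TCF/LEF core stood in a minority of promoters at β-catenin peaks, and the interval of that share includes the share of all promoters. The peaks overlapped 218 promoter windows of 208 genes. Either strand was searched for the core letters CTTTG followed by AT, TT, AA or TA, 7 letters in all, in the whole 300-base window. They stood in 27 of the 218 (12.4%, interval 8.65 to 17.4%) and in 3129 of 21263 windows of the table (14.7%). The windows at peaks were richer in G and C, with a median GC content of 62.0% against 56.3% and 24 against 13 CpG dinucleotides. With the windows of the table split into 5 classes of GC content, from low to high, the share was 15.4, 21.7, 19.6, 11.1 and 3.39% at peaks (13, 23, 51, 72 and 59 windows) and 27.8, 19.8, 13.7, 7.17 and 4.53% in the table. In the 5 classes the share at peaks was thus below that of the table in the lowest and the highest class and above it in the others. Windows overlapped by Pygo2 peaks held the letters in 9.98% of cases, at the same median GC content of 62.0%.

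In 8 of the 27 windows the letters lay inside the bases covered by the peak: those of Disp1, Ube2b, Dph1, Ppp1r10, Rbm4, Scn2a, Ssb and Adpgk. Over the 218 overlapped windows the peaks covered a median of 142.5 of the 300 bases, so letters can lie inside a peak through coverage alone. Whether the letters lay inside peaks more often than this coverage gives was not tested. In the Ppp1r10 sequence above the letters are bases 40 to 46, in capitals, beginning 211 bases before the start. In the Tcf12 sequence they are bases 82 to 88, outside the peak. The Axin2, Jag1, Smad6 and H4c11 windows do not hold them, which says only that these letters are absent from the printed bases. Peaks away from promoters, Lef1, Ccnd1 and Ctnnb1 among them, were not searched.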

How the data were processed

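ChIP-seq libraries of branchial arches were analysed from the deposited peak lists of the β-catenin and Pygo2 libraries labelled BA2. Per the file headers, the authors ran findPeaks of HOMER (factor style) on each library separately. Bowtie and Bowtie2 are also listed in the submitters' processing notes, with mm10 as the build; versions are not given in the sources used here. Chromosome, start and end columns were used as the authors deposited them, converted to 1-based positions, and the score column the authors deposited is 1 for every peak. The header gives IgG-BA1 as the control.

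Distances ran from the peak centre to 21887 protein-coding genes of a RefSeq table (GRCm38.p6, the assembly of mm10). A gene that holds the centre came before any other, and of several the one with the nearest end. Start sites, strand and promoter sequences came from a RefSeq promoter table with 21263 entries for 17492 of these genes and none for chromosome 18. Intervals are 95% Wilson intervals. Python 3.11.15, NumPy 2.4.6, pandas 2.3.3, SciPy 1.17.1 and Matplotlib 3.10.9 were used, and the assignment was tested on simulated data. Of 536 symbols in 19 lists, 535 matched.

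The peaks, lists and families were chosen with earlier results of these data known. Named are Axin2, Lef1 and Ccnd1, the genes with 3 peaks and the closest 2-peak genes up to 15 in all, list members nearest to a peak (within 50 kb where fewer than 3 were nearest), up to 4 members of each family with at least 3 nearest to a peak, the 10 genes with the closest ends and the 5 longest runs. Some genes that this rule names are not reported here. Other genes were picked as examples after their values were seen. Alternatives changed the distance, the window, the assignment, the motif letters and the peaks kept.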

Additional observations from a re-analysis of the deposited data

How the results depend on the processing

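The distance settings moved most counts. With a limit of 500 bp or 2 kb in place of 1 kb, 26.6% or 41.7% of peaks lay at a gene end. Counting all genes within 50 kb of a peak gave 2443 genes in place of 995. Joining peaks at 5 kb or 50 kb gave 25 or 90 runs in place of 40. With windows of 5 kb or 100 kb, 5.98% or 22.6% of list members had a peak, in place of 14.4%. The shorter motif CTTTG stood in 47.7% of the promoters at peaks. The deposited score does not rank peaks, so the first 540 peaks in deposited order were also used alone. The key of that order is not stated, so this is a smaller list and not known to be a stricter one. It gave 516 nearest genes, 24 genes with several peaks, 18 runs, 124 promoters and 9.16% of list members, while its share at gene ends was 36.1% and its share of promoters with the 7 letters 14.5%. Of the 18 families with a member at a gene end, 14 kept their count within 1.5 times at 500 bp, 16 at 2 kb and 6 in the first 540 peaks. Of the 19 lists, 6 did so at 5 kb, 12 at 100 kb and 10 in the first 540 peaks, each count including the blood list, which stood at 0 in every setting. No paired analysis was possible because each list is 1 library. The mean of 14.6 tags per peak is near the calling minimum of 11, so the listed peaks rest on few tags on average. Positions below that minimum are not in the list, and their number was not examined.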

Other observations

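The deposited order of the β-catenin list fell into 40 stretches in which chromosome number and position rose. The longest stretch held 255 peaks, and 5 stretches of at least 50 peaks held 760 of the 1079 peaks. Beyond 50 kb from any protein-coding gene, 9 genes were the nearest gene of more than 1 peak. Besides Hace1, Sox11 and Tcf4 these were Csnk1g3, Gm40514, Kif2b, Ly86, Pcdh17 and Zfp608, and those of Pcdh17, a protocadherin gene, lay 375 and 1433 kb away.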
